A study of Homo sapiens with 12 samples.

Results

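The genes described here are 8 human genes of antigen presentation and immune checkpoint control, followed across maps of SREBP2, RORγ and H3K27ac in HCC70 cells. They are HLA-B, HLA-C, B2M, TAP1, NLRC5, CIITA, CD274, which encodes PD-L1, and IRF1, and they were chosen by name, 8 of 20098 protein-coding genes on chromosomes 1 to 22 and X. A region of a deposited peak list was assigned to a gene's promoter when it overlapped the stretch from 1 kb before to 100 bp after any annotated start of a transcript of that gene, and to its surroundings when it lay in the gene or within 10 kb of it.

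HCC70 is an established triple-negative breast cancer line. The cells received vehicle or the RORγ antagonist XY018 for 24 h, and the labels state 5 µM for the compound whereas the study's methods state less. Chromatin was precipitated with antibodies against SREBP2, RORγ and acetylated lysine 27 of histone H3 (H3K27ac). Each of the 6 combinations of antibody and treatment was 1 library, so no difference between treatments had a replicate check, no p-value was computed, and every interval below covers counting error only.

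MHC class I molecules show peptides from inside the cell to cytotoxic T cells. They consist of a heavy chain, such as the products of HLA-B and HLA-C, and of the light chain β2-microglobulin, made from B2M, and they are loaded in the endoplasmic reticulum with peptides that the TAP1 and TAP2 transporter brings in. NLRC5 is the transactivator of class I genes and CIITA that of class II genes, IRF1 is a transcription factor induced by interferon, and PD-L1 on tumour cells restrains T cells through the receptor PD-1. SREBP2 is the main activator of cholesterol synthesis genes, RORγ is a nuclear receptor that binds DNA as a monomer at AGGTCA half-sites, and H3K27ac marks active promoters and enhancers.

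The promoter sequences are shown first, because the interferon-related elements of this gene class lie close to the start, whereas several of the summits described below do not. Each run holds 250 bases before the start of the canonical transcript, the start itself and 49 bases after it, read 5′ to 3′ on the strand of the gene from the GRCh37 reference, which is the hg19 build of the lists. Capitals mark every match, on either strand, to 7 short patterns, namely the IRF element AANNGAAA, the GAS element TTCNNNGAA of interferon-responsive genes, the κB element GGGNNTTCC, the CCAAT box, TGACG, the ROR half-site AGGTCA and the sterol regulatory element TCACNCCAC. HLA-B and B2M are shown as members of one class I module, and CD274 and IRF1 as the holders of a GAS element.
HLA-B, chr6:31324907-31325206, minus strand: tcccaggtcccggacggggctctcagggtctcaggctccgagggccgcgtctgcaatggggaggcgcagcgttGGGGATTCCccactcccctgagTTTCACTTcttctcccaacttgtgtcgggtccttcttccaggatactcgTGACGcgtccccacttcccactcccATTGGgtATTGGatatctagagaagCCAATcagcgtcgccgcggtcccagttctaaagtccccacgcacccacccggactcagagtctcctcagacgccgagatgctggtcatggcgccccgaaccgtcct
B2M, chr15:45003465-45003764, plus strand: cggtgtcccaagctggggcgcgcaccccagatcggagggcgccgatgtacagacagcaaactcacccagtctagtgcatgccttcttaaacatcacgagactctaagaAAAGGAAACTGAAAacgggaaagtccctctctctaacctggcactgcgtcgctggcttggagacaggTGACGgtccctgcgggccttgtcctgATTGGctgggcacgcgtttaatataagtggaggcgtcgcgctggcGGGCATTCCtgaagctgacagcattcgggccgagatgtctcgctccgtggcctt
CD274, chr9:5450292-5450591, plus strand: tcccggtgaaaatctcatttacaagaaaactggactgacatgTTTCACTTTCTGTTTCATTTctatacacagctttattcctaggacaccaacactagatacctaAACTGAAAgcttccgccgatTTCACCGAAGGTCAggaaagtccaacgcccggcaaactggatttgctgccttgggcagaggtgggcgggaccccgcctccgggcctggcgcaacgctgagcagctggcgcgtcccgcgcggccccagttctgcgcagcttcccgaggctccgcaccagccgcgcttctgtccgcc
IRF1, chr5:131826416-131826715, minus strand: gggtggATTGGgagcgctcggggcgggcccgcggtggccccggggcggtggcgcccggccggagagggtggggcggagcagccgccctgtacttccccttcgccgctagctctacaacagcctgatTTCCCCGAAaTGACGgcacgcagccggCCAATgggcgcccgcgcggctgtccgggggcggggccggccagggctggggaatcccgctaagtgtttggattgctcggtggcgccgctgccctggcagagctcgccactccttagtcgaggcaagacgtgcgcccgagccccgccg

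In these windows the IRF element was found in 7 of the 8 genes, all but IRF1, against 18.8% of 19819 protein-coding promoters of the same length. HLA-B had it 155 to 148 bp before the start and HLA-C 151 to 144 bp before it. In CD274 it occurred 4 times, 3 of them as overlapping neighbours, and B2M and TAP1 each had an overlapping pair. The GAS element stood in CD274 and IRF1 only, 2 of 8 against 6.51% of all promoters, from 125 and 124 bp before the start respectively. The κB pattern GGGNNTTCC was matched in HLA-B and B2M, 2 of 8 against 7.36%, and the B2M match lay across the start itself. Other forms of κB site were not searched, so nothing is said about κB sites in the other genes. The CCAAT box was found in 5 of 8 against 36.0% and TGACG in 4 of 8 against 29.2%. The ROR half-site was found in CD274 alone, 1 of 8 against 11.2%, and its first base was the last of the GAS element. No member held the sterol regulatory element, which occurred in 1.22% of all promoters. A match describes letters of the reference and is not evidence of a bound factor.

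Levels are given as the number of DNA fragments piled up at the summit of a region, a whole number recovered from the deposited values, and as that number divided by the genome-wide background of the same library. The recovered depth was between 3.65 and 6.16 tags per kb of genome over the 6 libraries. A ratio is the XY018 level over the vehicle level, taken at the overlapping pair of regions with the highest pileup for which at least 1 region touched the gene's promoter. The lists held between 69700 regions (SREBP2, XY018) and 167264 regions (RORγ, vehicle), so a promoter region was common. They included weak calls, such as a RORγ region near HLA-C with XY018 at a −log10 q-value of 0.467. The study itself counted fewer binding sites of both factors, which it called high-confidence. Among cell type markers, H3K27ac with vehicle was found at the promoters of 4 of 5 basal ones, all but KRT14, and of 3 of 4 luminal ones, all but PGR. Over all protein-coding genes the share was 66.8%, so these counts do not separate basal from luminal cells. Of the leukocyte markers reported here, CD68 had an H3K27ac promoter region with vehicle, whereas PTPRC and CD3E had no promoter region in any list.

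SREBP2 was found at the promoters of 7 of the 8 genes with vehicle, all but B2M, and of 6 with XY018, where CIITA was no longer called. The background was high, since SREBP2 had a region at the promoters of 70.6% of all protein-coding genes in the vehicle list and of 62.7% in the XY018 list. H3K27ac marked all 8 promoters under both treatments, against 66.8% and 68.0% of genes. RORγ was found at 4 of the 8 with vehicle (HLA-C, TAP1, NLRC5 and IRF1) and at 5 with XY018, where HLA-B was added, against 62.6% and 61.5% of genes. For both factors the members' counts therefore lay within 1 or 2 genes of what the background share of 8 would give. The RORγ levels of the 4 genes were low to middling, from 6.35 times background at HLA-C to 30.5 at IRF1 with vehicle, beside a median of 30.5 over all genes with a RORγ promoter region.

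**Figure D1:**
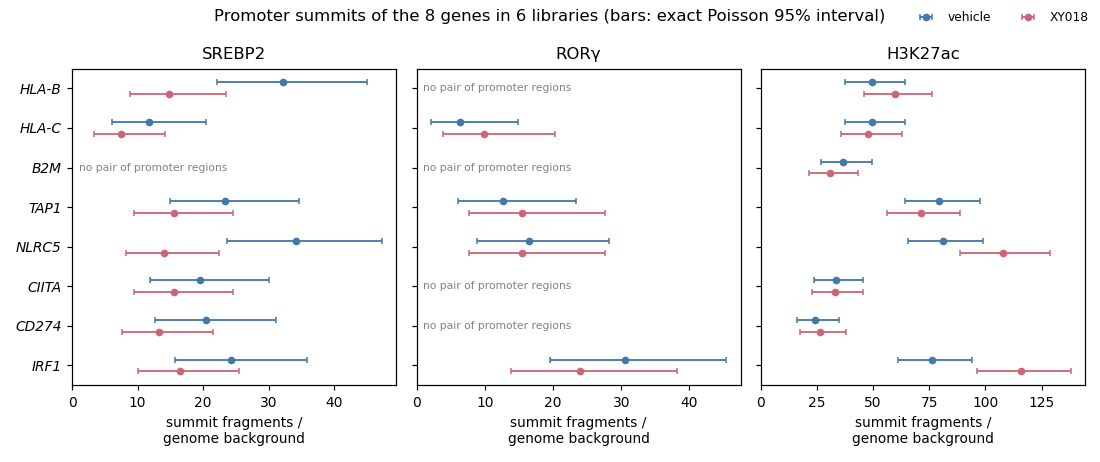
Fragments at the promoter summit divided by the genome-wide background of the library (horizontal axis) for the 8 genes (rows), with vehicle in blue and XY018 in red, 1 library each, and bars for the exact Poisson 95% interval. SREBP2 points lie lower with XY018 in all 7 genes that have a pair, and the widest gaps are at HLA-B (32.1 against 14.8) and NLRC5 (34.1 against 14.0).

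The class I heavy chain genes came first in the question of what changed with the antagonist. At HLA-B the SREBP2 summit held 33 fragments with vehicle and 18 with XY018, 653 bp after the canonical start in an intron and at the start of other transcripts. These are levels of 32.1 and 14.8 times background and a ratio of 0.462 (95% interval 0.245 to 0.844), an interval that did not reach 1. A smaller SREBP2 region with 9 fragments, 134 bp after the start, was listed with vehicle only. RORγ had a region with 11 fragments at the same place, 557 bp after the start, with XY018 only, and the sole RORγ region of the vehicle list within 10 kb lay 7546 bp before the start with 7 fragments. H3K27ac at HLA-B had 58 fragments with vehicle and 64 with XY018, a ratio of 1.21 (0.834 to 1.76).

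The SREBP2 summit of HLA-B with vehicle is shown because, when the highest vehicle promoter summit of each member was searched for SREBP2 and for RORγ, it was the one with the IRF element within 100 bp, against 2.18% of all SREBP2 promoter summits. The capitals mark 2 overlapping copies on the strand opposite to the gene.
HLA-B SREBP2 summit, chr6:31324203-31324403, minus strand: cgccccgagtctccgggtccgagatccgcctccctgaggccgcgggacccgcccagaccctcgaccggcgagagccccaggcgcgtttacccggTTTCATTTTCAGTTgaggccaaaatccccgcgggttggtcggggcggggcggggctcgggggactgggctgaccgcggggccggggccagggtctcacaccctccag

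HLA-C had the lowest SREBP2 and RORγ promoter levels of the members with a region. Its SREBP2 promoter region with XY018 and its RORγ promoter region with vehicle were weak calls, with −log10 q-values of 1.55 and 1.71. Its SREBP2 summit, in an exon, held 12 fragments with vehicle and 9 with XY018, and the ratio of 0.635 had an interval from 0.236 to 1.64. Its RORγ region, 936 bp after the canonical start and at the start of another transcript, held 5 and 7 fragments, a ratio of 1.55 with an interval from 0.423 to 6.19 that says little about direction. H3K27ac had 58 and 51 fragments, a ratio of 0.963 (0.648 to 1.43). Of the 50-base windows within 1000 bp of the start, 97.1% at HLA-B and 96.2% at HLA-C occurred once in the reference, against 100% at the other 6 genes. Within 150 bp of the vehicle promoter summits the share was 93.7% at HLA-B, for SREBP2 and for H3K27ac. At HLA-C it was 97.2% for SREBP2, 94.8% for H3K27ac and 88.1% for RORγ. The number of reads lost to related genes was not tested. HLA genes are highly variable, and how many reads of HCC70 alleles failed to align to the reference was not tested.

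B2M, the gene of the shared light chain, had no SREBP2 and no RORγ region within 10 kb in any of the 4 factor lists. The nearest SREBP2 summits were 48.1 kb before the start with vehicle and 40.1 kb before it with XY018, and the nearest RORγ summits were 42.2 kb after it with vehicle and 48.0 kb before it with XY018. Its promoter carried H3K27ac in both libraries, with 43 fragments with vehicle and 33 with XY018 and a ratio of 0.841 (0.518 to 1.35). Over all protein-coding genes, 1025 (5.10%) lacked both factors within 10 kb in this way, and only 69 of the 12988 genes with acetylated promoters in both lists did. B2M thus held acetylated chromatin without a listed site of either factor, whereas each of the other 7 genes had at least a SREBP2 region.

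TAP1 encodes a subunit of the peptide transporter and shares a bidirectional promoter with PSMB9, a subunit of the immunoproteasome, so its regions belong to both genes. The SREBP2 summit 230 bp into TAP1 held 24 fragments with vehicle and 19 with XY018 (ratio 0.670, 0.347 to 1.28), and a second one, 468 bp before the TAP1 start on the PSMB9 side, held 17 and 12 (0.597, 0.260 to 1.33). RORγ was found at both places under both treatments, with 10 and 11 fragments at the TAP1 side and 7 and 6 at the PSMB9 side. The ratios were 1.22 (0.469 to 3.19) and 0.948 (0.263 to 3.29). H3K27ac held 93 and 76 fragments, a ratio of 0.895 (0.652 to 1.23). Farther into the gene cluster 3 more SREBP2 regions with 8 to 11 fragments, at PSMB8, PSMB9 and TAP2, were listed with vehicle only.

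NLRC5 had the lowest SREBP2 ratio of the members. The summit, in an intron 137 bp after the start, held 35 fragments with vehicle and 17 with XY018, a ratio of 0.411 (0.216 to 0.754) below which 7.20% of all genes lay. RORγ at the same place held 13 and 11 fragments (0.936, 0.380 to 2.26). H3K27ac held 95 and 115 fragments, a ratio of 1.33 with an interval from about 1 to 1.76. The deposited folds of the same H3K27ac pair gave 1.97, because the local background that they are divided by was 3.52 fragments with vehicle and 1.78 with XY018. Thus at this promoter SREBP2 and H3K27ac lay on opposite sides of 1, as they did at the median of all genes.

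CIITA has several alternative promoters, and its SREBP2 region was not at the canonical one. It stood 2126 bp after the canonical start with vehicle and 2090 bp with XY018, with 20 and 19 fragments, a ratio of 0.804 (0.406 to 1.59), the highest of the members. The XY018 region, shorter at 433 bp against 588 bp, began just outside the promoter window, so the call was lost at the window's edge. H3K27ac at this place held 39 and 35 fragments (0.983, 0.605 to 1.59). RORγ was not listed there with vehicle and had a region of 9 fragments, outside the window, with XY018.

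The strongest factor site of CIITA lay inside the gene, in an exon 30.7 kb after the start. SREBP2 held 43 fragments there with vehicle and 44 with XY018 (ratio 0.866, 0.556 to 1.35), and RORγ held 49 and 46 (1.04, 0.679 to 1.58). For SREBP2 that ratio lay above those of 89.6% of all overlapping pairs in the lists, whose median was 0.597. H3K27ac at the same place was lower with XY018, with ratios that were low among all overlapping pairs. The 2 vehicle regions held 31 and 41 fragments, and the XY018 regions that overlapped them held 11 to 17, with ratios of 0.389 (0.176 to 0.795), 0.428 (0.224 to 0.779) and 0.454 (0.242 to 0.817). The last 2 ratios share the vehicle region with 41 fragments, whose summit lay 30.7 kb after the start. The XY018 summit of the pair with 0.428 lay at 29.9 kb and that of the pair with 0.454 at 30.7 kb. Of all overlapping H3K27ac pairs, 2.39% had a ratio lower than 0.454. The site was picked out after its values were seen. Its sequence is shown, 201 bases around the vehicle SREBP2 summit with 69.2% G and C, because none of the 7 patterns was found in it, so that it holds no capitals.
CIITA site inside the gene, chr16:11001612-11001812, plus strand: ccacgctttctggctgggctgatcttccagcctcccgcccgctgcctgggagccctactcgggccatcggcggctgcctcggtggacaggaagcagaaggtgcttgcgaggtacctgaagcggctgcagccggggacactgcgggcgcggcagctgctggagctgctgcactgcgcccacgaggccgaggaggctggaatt

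CD274, the gene of PD-L1, had a single SREBP2 region, centred 2 bp after its start in the first exon, with 21 fragments with vehicle and 16 with XY018 (ratio 0.645, 0.315 to 1.30). No RORγ region lay within 10 kb of the gene in either list, although the promoter printed above holds the AGGTCA half-site, and the nearest RORγ summits were 12.8 kb before the start with vehicle and 15.9 kb before it with XY018. H3K27ac lay in a broad domain of 11 regions with vehicle and 8 with XY018. It held 28 and 27 fragments 905 and 858 bp before the start, and 28 and 28 fragments 5.18 kb into the gene at an alternative start (ratio 1.10, 0.625 to 1.92). Its highest summits were 9.36 kb into the gene with 50 and 61 fragments (1.34, 0.905 to 1.98). The local background at the gene was unusual, with a median of 3.01 times the genome-wide one over the vehicle H3K27ac regions and 4.26 times at the vehicle SREBP2 region, while only 5.72% of all H3K27ac and 2.78% of all SREBP2 vehicle regions reached 3 times. The part of this background in the counts was not tested.

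IRF1 had the strongest RORγ promoter region among the members. Its summit, 344 bp after the canonical start, held 24 fragments with vehicle and 17 with XY018, a ratio of 0.783 (0.395 to 1.52). SREBP2 at this core promoter held 22 and 16 fragments (0.616, 0.302 to 1.23). A second SREBP2 site, 6145 bp before the start at the start of longer transcripts, held 25 and 20 (0.677, 0.357 to 1.27), and RORγ there held only 5 and 4. H3K27ac was higher with XY018 at both places, with 75 and 99 fragments at the core promoter (1.45, 1.06 to 1.98) and 89 and 124 at the upstream one (1.53, 1.15 to 2.03). The upstream vehicle region also overlapped another XY018 region, with its summit 5241 bp before the start. That region held 45 fragments, a ratio of 0.554 (0.378 to 0.802). IRF1 and NLRC5 were the members whose H3K27ac ratio was above the median of all genes, 1.27, IRF1 above 80.0% of genes and NLRC5 above 57.3%. Both had SREBP2 ratios under 1 at the same summits, as had every member with a SREBP2 pair and 98.1% of all genes with one.

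**Figure D2:**
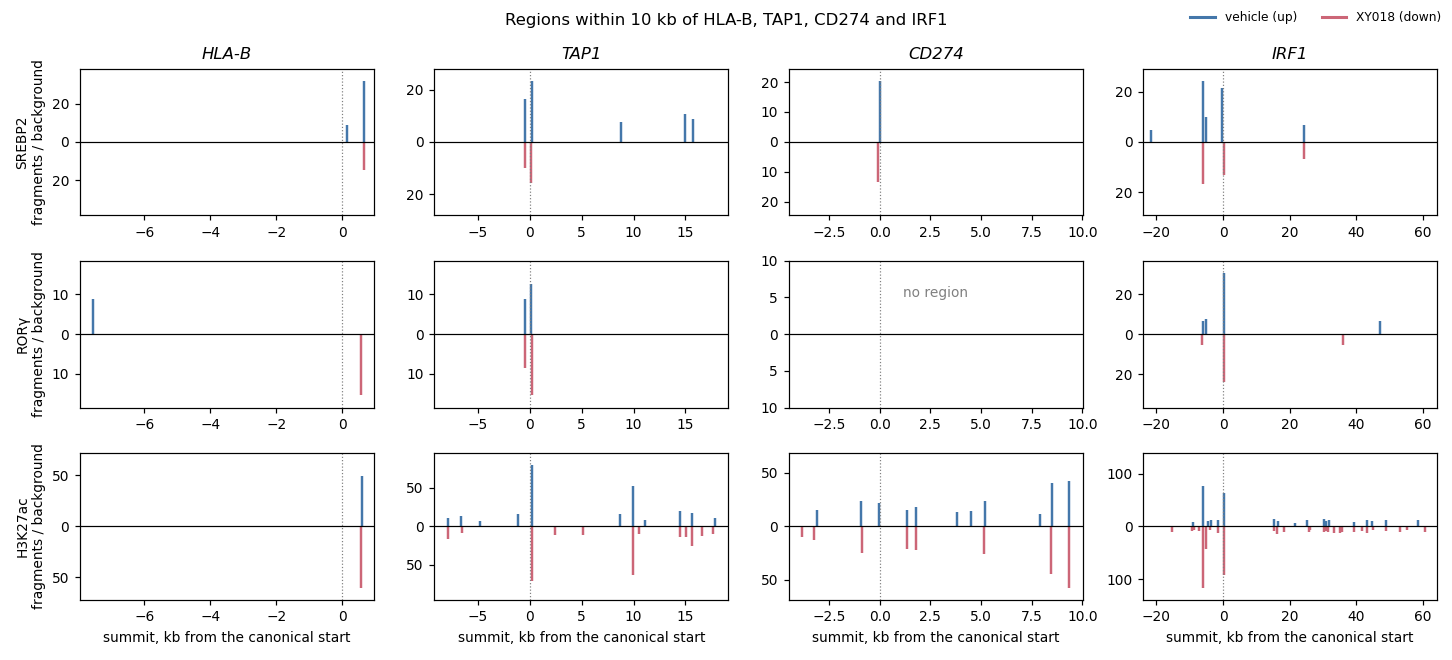
Summits of all regions within 10 kb of HLA-B, TAP1, CD274 and IRF1 by distance from the canonical start (horizontal axis, kb, upstream negative), with height in fragments over background, vehicle upward in blue and XY018 downward in red. RORγ is absent from CD274, and at HLA-B its region near the start appears with XY018 only.

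Set side by side, the SREBP2 ratios of the 7 genes with a pair ran from 0.411 to 0.804 and were all under 1. Their median was 0.645, beside 0.621 over 12565 genes with a pair, of which 98.1% were under 1. At most 1/1.5 was reached by 4 of the 7 (HLA-B, HLA-C, NLRC5 and CD274), against 62.3% of all genes, with TAP1 (0.670) and IRF1 (0.677) just above that limit, and 1.5 or more by none, against 0.0318%. By the deposited folds, which are divided by the local background, CIITA had a SREBP2 ratio of 1.21 and CD274 one of 0.984, so 6 of the 7 lay under 1 and CD274 no longer reached 1/1.5. The lower SREBP2 level with XY018 at these genes was therefore of the size found at promoters in general. The RORγ ratios of the 4 genes with a pair had a median of 1.08, beside 0.968 over 11573 genes. None was at most 1/1.5, against 8.98%, and 1, HLA-C, was at least 1.5, against 7.21%. For H3K27ac the median of the 8 genes was 1.04, beside 1.27 over 13055 genes. None was at most 1/1.5, against 2.96%, and 1, IRF1, was at least 1.5, against 22.5%. HLA-C, B2M, TAP1 and CIITA had H3K27ac ratios under 1, which 19.6% of all genes had.

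**Figure D3:**
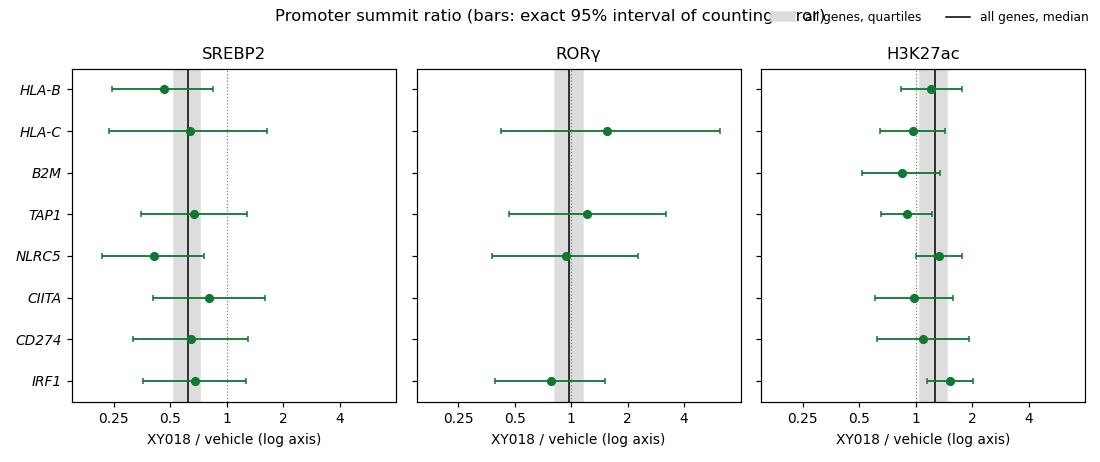
XY018 to vehicle ratio at the promoter summit (horizontal log axis) for each gene (rows), with exact 95% intervals of counting error, the median over all genes as a black line and their quartiles as a grey band. The SREBP2 points scatter about the median of 0.621, and in the H3K27ac panel IRF1 and NLRC5 lie right of the median of 1.27.

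Within 10 kb of the 8 genes the vehicle and XY018 lists held 41 and 16 SREBP2 regions, 26 and 26 RORγ regions, and 81 and 118 H3K27ac regions. The XY018 number was thus 0.390 times the vehicle one for SREBP2, equal to it for RORγ and 1.46 times for H3K27ac, beside 0.593, 0.777 and 1.11 times for the whole lists. Of the vehicle regions, 14 of 41 SREBP2 ones (34.1%, exact binomial 95% interval 20.1 to 50.6) overlapped an XY018 region, against 39.8% over the whole list. For RORγ it was 13 of 26 (95% interval 29.9% to 70.1%) against 36.4%, and for H3K27ac 63 of 81 (77.8%, 67.2 to 86.3) against 69.3%, so the whole-list share lay inside each interval. An overlapping RORγ region was found for 14 of the 41 SREBP2 vehicle regions (34.1%, 20.1 to 50.6), against 49.0% of the list. H3K27ac overlapped 23 of the 41 SREBP2 regions (56.1%, 39.7 to 71.5), against 27.3% of the list, and 12 of the 26 RORγ regions (46.2%, 26.6 to 66.6), against 16.7%. For these 2 shares the whole-list value lay below the interval. The intervals treat regions as independent, although 15 of the 41 SREBP2 regions lay at NLRC5 and 11 at CIITA. The regions near the members also include promoters by choice, which the lists as a whole do not to the same degree. No conclusion about the members is drawn from these differences.

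The numbers of SREBP2 and of H3K27ac regions differed most at NLRC5, which at 94.0 kb is also the longest member. SREBP2 had 15 regions within 10 kb of it with vehicle and 3 with XY018, and only 2 of the 15 overlapped an XY018 region, the one at the start and one 103 kb downstream at the promoter of CPNE2, with 53 and 39 fragments. The other 13 held 7 to 16 fragments each, and at a q-value of at most 1e-05 3 SREBP2 regions were left in the vehicle list and 2 in the XY018 list. RORγ had 9 and 6 regions. H3K27ac ran the other way, with 6 regions with vehicle and 24 with XY018. Of these, 3 overlapped, at the start, 21.9 kb into the gene and at CPNE2, and the XY018 regions inside the gene held 8 to 20 fragments apart from the start. At a q-value of at most 1e-05 the numbers were 3 and 13. A difference of 18 H3K27ac regions was larger than that of 99.9% of all genes. The differences of 13 at CIITA (76.8 kb) and 10 at IRF1 (68.3 kb) were larger than those of 99.6% and 99.1%, and CD274, with 3 fewer regions with XY018, lay above 2.85%. The part of gene length in these places was not tested, and the H3K27ac lists were 95099 and 105371 regions long. Both lists were selected from longer call sets by a rule that is not given. A region missing from a list may thus have been called and left out, and the part of this selection in the numbers was not tested.

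**Figure D4:**
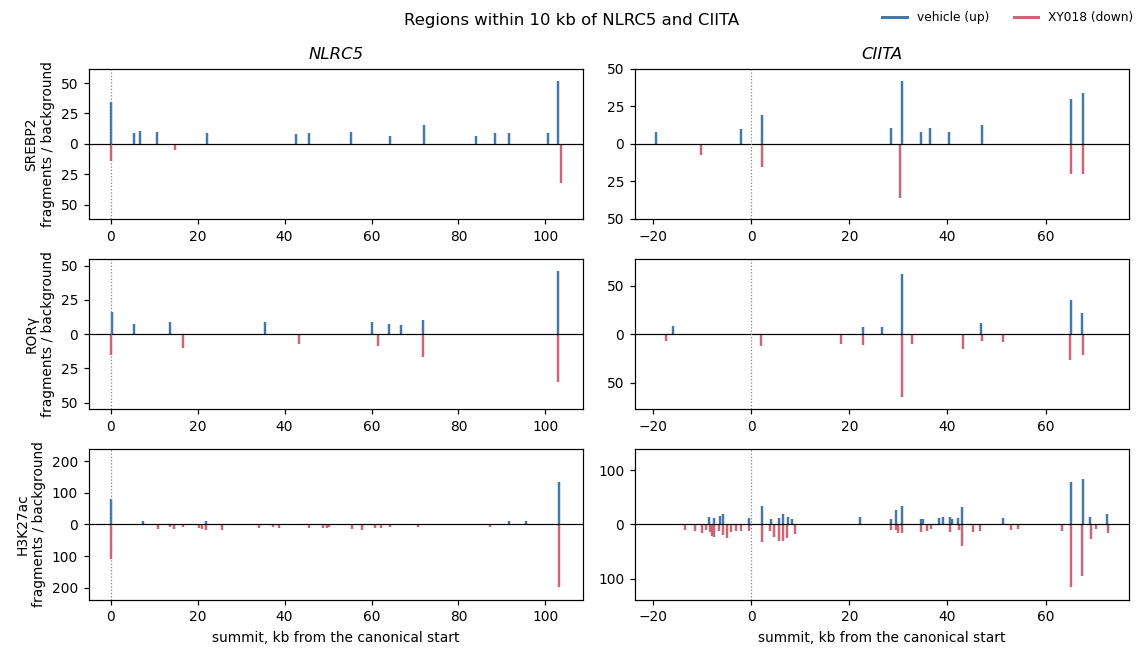
Summits of all regions within 10 kb of NLRC5 and CIITA by distance from the canonical start (horizontal axis, kb), with height in fragments over background, vehicle upward in blue and XY018 downward in red. Along NLRC5 the low SREBP2 stems are nearly all vehicle and the low H3K27ac stems nearly all XY018, and in CIITA the factor site at 30.7 kb has 43 and 44 SREBP2 and 49 and 46 RORγ fragments.

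CIITA had 11 and 5 SREBP2 regions in the vehicle and XY018 lists, 7 and 11 RORγ regions, and 28 and 41 H3K27ac regions. The span reaches the promoters of its neighbours DEXI and CLEC16A, where the factor and H3K27ac summits at 65.2 and 67.6 kb lay. H3K27ac was higher with XY018 in a stretch 5.56 to 8.30 kb after the start, with 15 and 33 fragments at its first summit (2.41, 1.27 to 4.78). Over the gene, 7 of 26 overlapping H3K27ac pairs had a ratio of at least 1.5, against 17.8% of all such pairs, and 3 of 26 one of at most 1/1.5, all 3 at the site inside the gene, against 8.49%. A region could enter more than 1 pair, and 2 of these 3 share a vehicle region. For SREBP2, 2 of 4 pairs at CIITA were at most 1/1.5, against 64.0%, none of at least 1.5, against 0.903%. For RORγ none of 4 passed either limit, against 11.2% and 14.6%.

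IRF1 had 5 and 3 SREBP2 regions, 4 and 3 RORγ regions, and 18 and 28 H3K27ac regions, over an annotated gene of 68.3 kb that includes long transcripts on both sides of the core gene. Over the canonical transcript of 9.16 kb with 10 kb to either side, the H3K27ac numbers were 8 and 11. Among genes with at least 5 regions in either list, at least 1.5 times as many SREBP2 regions with vehicle as with XY018 were found at TAP1, NLRC5, CIITA and IRF1, the 4 members with that many, against 63.8% of such genes, and at least 1.5 times as many with XY018 at none, against 2.06%. For RORγ, NLRC5 had 1.5 times as many with vehicle, against 36.8%, and CIITA more than 1.5 times as many with XY018, against 7.29%. For H3K27ac, 2 of 5 members, NLRC5 and IRF1, had at least 1.5 times as many with XY018, against 19.2%, and none with vehicle, against 8.62%.

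**Figure D5:**
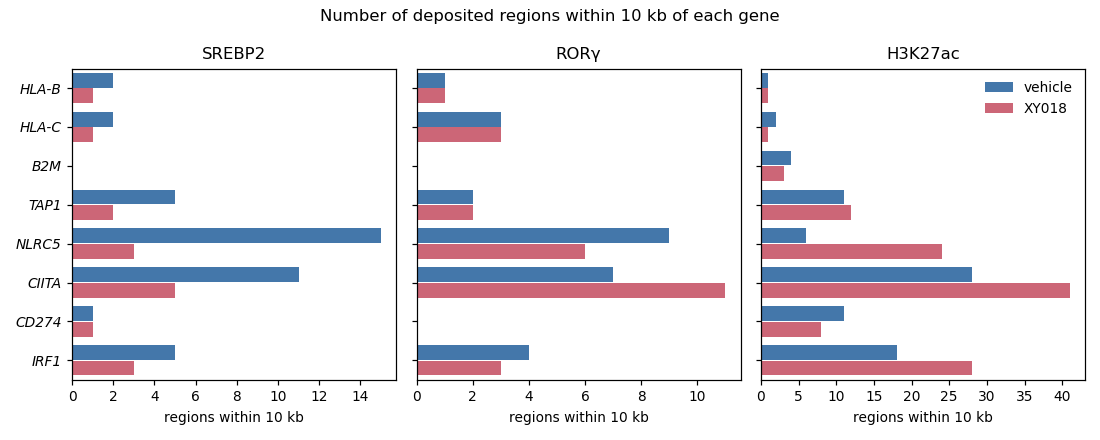
Number of regions within 10 kb of each gene (bars from 0) in the 2 lists of each antibody, with vehicle in blue and XY018 in red. NLRC5 has 15 SREBP2 regions with vehicle against 3 with XY018, and 6 H3K27ac regions with vehicle against 24.

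The other genes of the pathway were taken from a list of 52, and their regions and ratios were read by the same rules. Genes that shared a region were each counted, so the ratios are not all of separate sites. The pairs of PSMB9, for example, were those of TAP1 for each antibody. SREBP2 was at 39 promoters with vehicle (75.0%, against 70.6% of all genes) and 28 with XY018 (53.8%, against 62.7%). The 11 listed with vehicle only were the heavy chain gene HLA-F, the transporter gene TAP2, the immunoproteasome genes PSMB8 and PSMB10, HLA-DMA and IFI30 of the class II route, RFXANK and NFYA, whose products bind class I and II promoters, and IFNAR1, STAT2 and IRF9 of interferon signalling. At NFYA the XY018 list did hold an overlapping region, which lay outside the promoter window. None was listed with XY018 only. All 29 SREBP2 ratios were under 1, as were 98.1% over all genes, with a median of 0.589 beside 0.621. The lowest were 0.378 at NFYA (47 and 21 fragments, 0.215 to 0.645) and 0.403 at CMTM6 (21 and 10, 0.169 to 0.894), which keeps PD-L1 at the cell surface. The highest were 0.931 at CANX (20 and 22, 0.485 to 1.80) and 0.808 at CALR (22 and 21, 0.423 to 1.54), the genes of the chaperones calnexin and calreticulin.

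RORγ was at 33 of the 52 promoters with vehicle (63.5%, against 62.6% of all genes) and 31 with XY018 (59.6%, against 61.5%). PDIA3, IFI30, CTSS, IFNGR1 and CMTM6 had a region with vehicle only, and HLA-DQA1, HLA-DMA and NFYA with XY018 only. At NFYA the vehicle list had an overlapping region outside the promoter window, with 20 fragments against 12 with XY018 (ratio 0.663). The 29 ratios had a median of 0.880, beside 0.968 over all genes, with the highest at CANX (1.97, 0.818 to 5.05) and RELA (1.79, 0.854 to 3.88) and the lowest at RFXAP (0.572, 0.285 to 1.10) and ERAP1 (0.614, 0.253 to 1.40). None of these 4 intervals left out 1. H3K27ac was at 45 promoters with vehicle (86.5%, against 66.8% of all genes) and 46 with XY018 (88.5%, against 68.0%). HLA-DRA had it with vehicle only, and HLA-DMB and VTCN1 with XY018 only. At VTCN1 a vehicle region outside the promoter window overlapped the XY018 one and was higher, with 34 fragments against 22 (ratio 0.709). The median of the 45 H3K27ac ratios was 1.18, beside 1.27 over all genes. The non-classical heavy chain gene HLA-E was lowest, with 63 and 25 fragments (0.435, 0.262 to 0.701), followed by CMTM6 with 50 and 26 (0.570, 0.340 to 0.933), and STAT2 (1.96, 0.979 to 4.07) and PDIA3 (1.66, 1.24 to 2.24) were highest. Of the class II genes, HLA-DRB1, HLA-DQA1 and HLA-DQB1 had no H3K27ac promoter region in either list, nor had CD80 and CD86 of the checkpoint genes.

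The 7 patterns were searched within 100 bp of 1 SREBP2 summit per member, the highest at its promoter with vehicle, and few were present. HLA-B had the IRF element, and HLA-C had a CCAAT box, against 8.30% of all SREBP2 promoter summits, and a ROR half-site, against 5.36%. TAP1, NLRC5, CIITA, CD274 and IRF1 had none of the patterns at the summit searched, which for IRF1 was the upstream one. The core promoter summit of IRF1, 225 bp before the start, was not part of this search, and a CCAAT box stood 244 to 240 bp before the start. None of the SREBP2 summits searched held the sterol regulatory element, against 0.670% of all, and none of the 4 RORγ summits held AGGTCA, against 6.16%. TAP1 alone had a pattern at its RORγ summit, a CCAAT box, against 7.04%. The summits were rich in G and C, from 68.7% to 77.1% for SREBP2 and from 68.2% to 80.6% for RORγ, beside medians of 74.6% and 75.6% over all promoter summits.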

How the data were processed

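Chromatin immunoprecipitation sequencing was done in HCC70 cells with 3 antibodies and 2 treatments, and samples were grouped by the antibody and treatment in their labels. Of 12 samples, the 6 immunoprecipitated libraries were used, and the 6 inputs were not analysed here. According to the methods of the study, single-end reads were aligned to hg19 with BWA, tags with several positions and duplicates were removed, and peaks were called per library with MACS. The submitters' processing notes name Bowtie2, MACS2 2.1.0 and bedtools. For each peak the authors deposited a fold enrichment, in which 1 is added to the pileup at the summit and to the local background before they are divided, and −log10 p and −log10 q values. The H3K27ac lists were part of longer call sets, and the rule that selected them is not given in the sources used.

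Under the Poisson model of MACS, the fold and −log10 p were solved for the local background and for the summit's fragments, a whole number, within 5% of the step between whole numbers, and nearly all peaks gave one. The most common local background of a list was taken as that of the genome, and divided by the fragment length, the smallest peak width, it gave the tags per kb. Intervals are exact 95% intervals (Poisson for counts, Clopper-Pearson for shares, conditional binomial for ratios). An overlap of 1 bp made regions shared. Genes and starts came from GENCODE 44 lifted to GRCh37, sequences from the GRCh37 reference. The methods were tested on simulated data. Python 3.11.15, numpy 2.4.6, pandas 2.3.3 and scipy 1.17.1 were used.

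Named genes were the 8 members, the genes of the list of 52 with a promoter region under 1 treatment only, and the 2 highest and 2 lowest ratios of that list per antibody. CIITA's site inside the gene and other genes named for an absence were chosen after their values were seen. The members and lists were chosen with earlier results of these data known. The alternatives tried were q-value limits, other promoter windows and transcripts, other scalings and stricter overlaps. A leukocyte marker and the promoter sequence of NLRC5 are not reported here.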

Additional observations from a re-analysis of the deposited data

Results flagged for a closer look

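At NLRC5 and IRF1 the numbers of SREBP2 and of H3K27ac regions within 10 kb differed in opposite directions between the treatments, each by at least 1.5 times. NLRC5 had 15 SREBP2 regions in the vehicle list and 3 in the XY018 list, and 6 and 24 H3K27ac regions. IRF1 had 5 and 3 SREBP2 regions, and 18 and 28 H3K27ac regions. Over its canonical transcript with 10 kb to either side, the numbers were 3 and 2 for SREBP2 and 8 and 11 for H3K27ac. The opposite directions were not particular to these genes. CIITA had 11 and 5 SREBP2 and 28 and 41 H3K27ac regions, and TAP1 had 5 and 2, and 11 and 12. Their H3K27ac numbers differed by less than 1.5 times. With 1 library in each group, the difference between the antibodies was not tested. The H3K27ac lists were selected from longer call sets, and the part of this selection in the region numbers was not tested either. Beside these numbers, 63.8% of genes with at least 5 regions had at least 1.5 times as many SREBP2 regions with vehicle, and 19.2% at least 1.5 times as many H3K27ac regions with XY018. The median local background over the H3K27ac regions of NLRC5 was 1.86 times the genome-wide one with vehicle and 1.51 times with XY018, and its part in the region numbers was not tested. At IRF1 it equalled the genome-wide one in both.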

How the results depend on the processing

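No paired analysis was possible because each group held 1 library. Of 200 values recomputed under the alternatives, 184 kept their side or stayed within 1.5 times or 1 interval. A q-value of at most 1e-05 left RORγ promoter regions at 2 members in the vehicle list and 4 in the XY018 list. It left SREBP2 promoter regions at 7 members in the vehicle list and 4 in the XY018 list. The share of all genes at this limit is not given here, so no conclusion about the members is drawn from these counts. The same limit raised the share of regions kept to 78.6% for SREBP2 and 100% for RORγ, of 14 and 6 regions. The shares of the whole lists rose to 60.3% and 80.6%. With canonical starts only, chosen after the data were seen, 3 members had a RORγ promoter region in each of the RORγ lists. The share of all genes is not given for this setting either. The median RORγ ratio of the members was then 0.936, under 1, because HLA-C lost its pair. Scaling by tags per bp gave the members a median SREBP2 ratio of 0.715. It multiplied the SREBP2 ratio of every gene by the same factor, so the place of the members among all genes did not change. HLA-B (0.512) and NLRC5 (0.456) still reached 1/1.5, whereas HLA-C (0.703) and CD274 (0.715) no longer did. By the deposited folds 1 member had a RORγ ratio under 1. With summits within 100 bp, 53.1% of H3K27ac regions were kept and 19.5% of SREBP2 regions had RORγ, against 47.4% and 32.4% of the lists. Within 50 bp of the SREBP2 summits no member (0) had the CCAAT box. For single genes, 114 of 120 alternative values stayed by this rule, which let a ratio cross 1. By the deposited folds the SREBP2 ratio of CIITA went from 0.804 to 1.21 and the RORγ ratio of NLRC5 from 0.936 to 1.26. The H3K27ac ratio went from 1.21 to 0.915 at HLA-B, from 0.841 to 1.03 at B2M and from 0.983 to 1.07 at CIITA. Low fragment numbers limit HLA-C most, and without replicates no difference can be told from the variation between libraries.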
